A study of Pleurotus tuoliensis with 9 samples.

Results

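Transporters of the major facilitator superfamily (MFS) and sugar transporters were followed in mycelia of *P. tuoliensis* kept at 3 temperatures. The members were chosen by the words of the protein match that the deposited table gives for each unigene, where a unigene is an assembled transcript unit: a unigene was taken if its description held MFS, major facilitator, or a sugar, hexose, glucose or monosaccharide transporter. This gave 47 of the 13953 unigenes. Of these, 30 were described as an MFS general substrate transporter, 4 as an MFS substrate transporter and 7 as a sugar transporter of some kind, 2 had another named substrate (polyamines and drugs), and the other 4 were described only as members of the superfamily or of its DHA1 branch. All of them are named from a match to another protein and not from a measured transport activity.

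MFS proteins form one of the largest groups of membrane transporters in fungi. They move small molecules such as sugars, organic acids, peptides, polyamines and toxins through the membrane, either down a gradient or coupled to the flow of protons. Hexose transporters, best studied in *Saccharomyces cerevisiae*, bring in glucose and related sugars, and the drug:H+ antiporters of the DHA families export foreign compounds.

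RNA-seq libraries were made from mycelia of strain Zhongnong No.1 grown on potato dextrose agar in darkness, with the first 9 days at 25 °C. The 3 groups differed in the temperature that followed, held without a break over days 10 to 13 inclusive, with the harvest on day 13. This temperature was 25 °C in CK (control), 32 °C in MHT (moderate heat stress) and 36 °C in SHT (severe heat stress). Each group had 3 libraries from 3 separate plates, all inoculated from 1 starting plate, which makes the replicates separately grown cultures of a single strain. In bulk mycelium, fewer cells with a transcript and less of it per cell cannot be told apart.

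The libraries held 3925786 to 5014053 counts in CK, 4865930 to 6180053 in MHT and 4764179 to 5917149 in SHT. Of the descriptions used as a check on hyphae (hydrophobin, chitin synthase, cerato-platanin and septin), 20 of 21 unigenes had a count in all 9 libraries. Expression is given as CPM, the count scaled to a common library size, after TMM scaling, which adjusts for differences in library composition. CPM is not divided by transcript length, so it compares a unigene between libraries and not one unigene with another. Unigenes with a zero count in any library were left out, and 44 of the 47 transporters and 13018 unigenes in all were tested with edgeR's quasi-likelihood test. A unigene was called a DEG in a comparison such as SHT&CK, which sets SHT over CK, when its adjusted p was below 0.05 and its log2 fold change was beyond 1 in either direction, and the standard error of a log2 fold change is given as SE.

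The 3 transporters left out had few counts. The MFS general substrate transporter gene_14922 had no count in CK, 2, 1 and 0 in the MHT libraries and 1, 0 and 0 in the SHT libraries. The hexose transporters gene_15828 and gene_18789, which match 1 protein, had at most 6 counts in a library.

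More of the transporters were DEGs than of all unigenes tested, and most of those that changed were higher in the heated mycelia. In MHT&CK 7 rose, 2 fell and 35 did not pass, so that 20.5% were DEGs against a background of 8.17% of all unigenes tested. In SHT&CK 11 rose, 3 fell and 30 did not pass, 31.8% against 21.7%. In SHT&MHT 3 rose, 2 fell and 39 did not pass, 11.4% against 5.65%. The rises made up 15.9% of the transporters in MHT&CK (3.85% of all unigenes), 25.0% in SHT&CK (10.8%) and 6.82% in SHT&MHT (2.79%). The falls made up 4.55% of the transporters in MHT&CK (4.32% of all unigenes), 6.82% in SHT&CK (10.9%) and 4.55% in SHT&MHT (2.87%). These shares are descriptions of a list chosen by name and carry no test of the list. They also count unigenes and not distinct proteins. Of the 7 that rose in MHT&CK, gene_16882, gene_26842 and gene_26843 match 1 protein, and gene_4313 and gene_4314 match another. The unigenes gene_16882, gene_26842 and gene_26843 are also among the 11 that rose in SHT&CK. The 2 that fell in SHT&MHT are gene_4313 and gene_4314. At its lowest with 1 library left out, the number of transporters called in MHT&CK was 4 (without CK replicate 3 or MHT replicate 3). In SHT&MHT it was 3 (without MHT replicate 1 or SHT replicate 3). Without MHT replicate 1 or SHT replicate 3 fewer of all unigenes were DEGs in SHT&MHT as well, as given further below. The background shares above are those of the fit with all libraries.

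**Figure D1:**
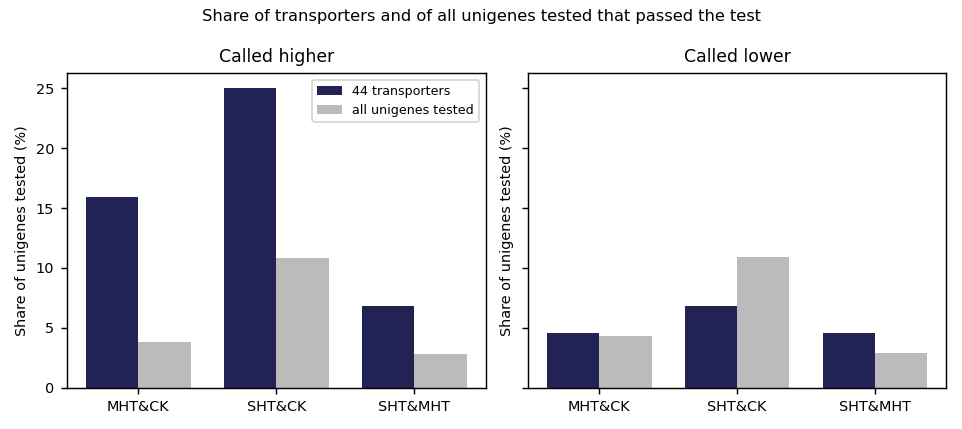
Share of unigenes tested that were called higher (left) or lower (right) in each comparison, in %, for the 44 transporters (dark bars) and all 13018 unigenes tested (grey bars). In SHT&CK 25.0% of the transporters rose, against 10.8% of all unigenes.

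The shift of the whole list was small beside that of its DEGs. For the 44 transporters the median log2 fold change was 0.14 in MHT&CK, 0.27 in SHT&CK and 0.12 for SHT&MHT, and that of all unigenes tested was -0.0015, 0.012 and -0.0023. The values of the transporters ran from -2.37 to 2.40 in MHT&CK, from -2.42 to 2.66 in SHT&CK and from -3.42 to 2.35 in SHT&MHT. The groups did not overlap for 18 of the 44 in MHT&CK, 40.9% against 37.5% of all unigenes, for 23 in SHT&CK, 52.3% against 55.9%, and for 18 in SHT&MHT, 40.9% against 27.9%. In MHT&CK 12 of these lay wholly above CK (18.4% of all unigenes) and 6 wholly below (19.1%). In SHT&CK 13 lay above (27.6%) and 10 below (28.3%), and in SHT&MHT 12 lay above MHT (15.4%) and 6 below (12.6%). Without the fold threshold, an adjusted p below 0.05 was found for 10 of the 44 transporters in MHT&CK (14.9% of all unigenes) and 7 in SHT&MHT (9.75%). In SHT&CK it was found for 18 of the 44, 40.9% against 40.1%, so there the share was near that of all unigenes. The median of the mean CPM over the 9 libraries was 13.2 for the transporters and 29.9 for all unigenes tested. The part of this difference in the shares of DEGs was not tested.

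A total of 16 transporters were DEGs in at least 1 comparison, 36.4% of those tested against 24.9% of all unigenes, and 28 were DEGs in none. They fell into a few patterns. There were 5 that rose in both MHT&CK and SHT&CK, 4 that rose in SHT&CK alone, 2 that rose in SHT&CK and SHT&MHT, 2 that rose in MHT&CK and fell in SHT&MHT (1 of them also fell in SHT&CK), 1 that fell in MHT&CK and rose in SHT&MHT, 1 that fell in both heat treatments and 1 that fell in SHT&CK alone. By group means, 14 of the 44 (31.8%) had the order CK, MHT, SHT from low to high, an order shown by 27.3% of all unigenes, and 6 (13.6%) had the reverse order, shown by 27.7%.

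**Figure D2:**
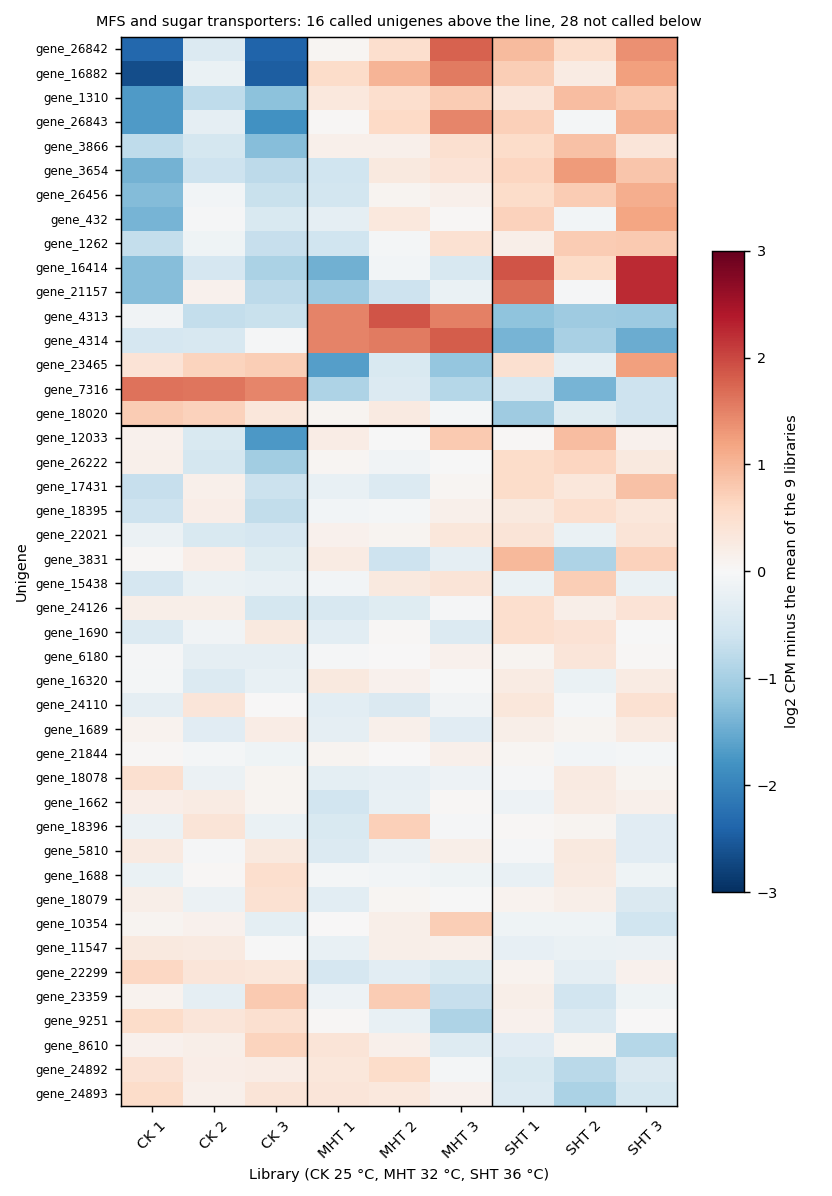
Log2 CPM of the 44 transporters tested (rows) in the 9 libraries (columns, CK, MHT and SHT replicates 1 to 3), each row shown as the difference from its mean over the libraries. The 16 DEGs stand above the line, and the 28 transporters below it stay within an absolute log2 fold change of 1.00 in every comparison.

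Single libraries are named by group and replicate number, as in CK 2. Of the 5 sugar transporters tested, 1 rose and 1 fell in SHT&CK and the other 3 passed in no comparison. The hexose transporter gene_16414, whose best match carries the name hxt, was at 4.10, 7.20 and 5.24 CPM in CK replicates 1 to 3, 3.63, 9.92 and 7.43 in MHT and 39.9, 15.7 and 50.9 in SHT. Every SHT library was above every CK and MHT library, and SHT 2 was the lowest of its group. The gene rose 6.34-fold in SHT&CK (log2 fold change 2.66, SE 0.459, edgeR's quasi-likelihood test, adjusted p = 0.00121). It rose 5.10-fold in SHT&MHT (log2 fold change 2.35, SE 0.439, adjusted p = 0.00882). The MHT&CK value of 0.31 (SE 0.489) did not pass.

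The sugar transporter gene_18020 went the other way. It was at 10.3, 9.74 and 7.64 CPM in the CK libraries, 6.27, 7.21 and 5.63 in MHT and 2.61, 4.55 and 3.70 in SHT, so that the 3 groups did not overlap. It fell by 1.35 on the log2 scale in SHT&CK (SE 0.287, edgeR's quasi-likelihood test, adjusted p = 0.00332), while -0.52 in MHT&CK and -0.83 in SHT&MHT did not pass.

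The remaining sugar transporters include the most counted member of the list. The monosaccharide transporter gene_15438 was at 566, 696 and 682 CPM in CK, 749, 982 and 1040 in MHT and 695, 1328 and 691 in SHT. MHT lay wholly above CK, while in SHT only replicate 2 stood out and the other libraries overlapped CK. None of its differences passed, with a log2 value of 0.51 in MHT&CK (SE 0.268, adjusted p = 0.215) and 0.48 in SHT&CK (SE 0.268, adjusted p = 0.167). The hexose transporter gene_22299 was lower in every MHT library (2.47, 2.89 and 2.61 CPM) than in any CK library (5.86, 4.87 and 4.80 CPM). Its log2 fold change of -0.95 in MHT&CK had an adjusted p of 0.0489 (edgeR's quasi-likelihood test) and stayed under the fold threshold. A further hexose transporter, gene_10354, had 2.78 to 7.63 CPM over the 9 libraries and passed in no comparison.

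**Figure D3:**
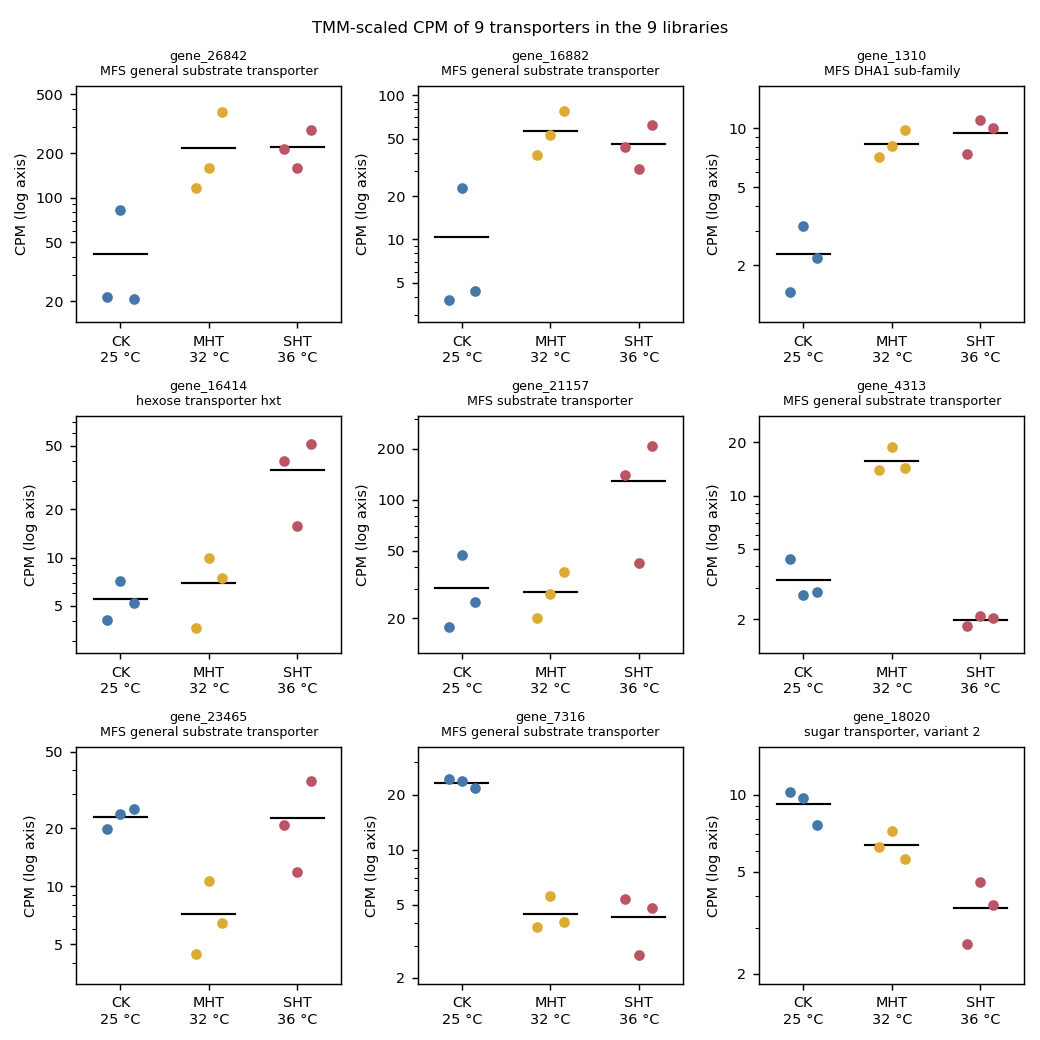
TMM-scaled CPM (log axis) of 9 transporters in each library, with points for the 3 replicates of CK (25 °C), MHT (32 °C) and SHT (36 °C) and a bar for the group mean. The panels show rises at both temperatures (gene_26842, gene_16882, gene_1310), rises at 36 °C (gene_16414, gene_21157), a peak at 32 °C (gene_4313), a low at 32 °C (gene_23465) and falls (gene_7316, gene_18020).

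Of the 5 transporters that rose in both heat treatments, 3 match the same MFS general substrate transporter of *Pleurotus eryngii*. The best counted of them, gene_26842, was at 21.4, 82.6 and 20.5 CPM in CK, 116, 157 and 381 in MHT and 213, 159 and 289 in SHT. CK 2 stood well above the other controls, and every heated library was above it. On the log2 scale the change was 2.38 in MHT&CK (SE 0.612, edgeR's quasi-likelihood test, adjusted p = 0.0286) and 2.40 in SHT&CK (SE 0.612, adjusted p = 0.0123). Without CK 2 the values were 3.38 and 3.39. The MHT&CK call was lost without CK 1 (2.10), CK 3 (2.05), MHT 3 (1.71) or SHT 1 (2.38), and where only the MHT and CK libraries were fitted (2.40).

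The unigene with the next ID, gene_26843, was at 10.8, 29.9 and 10.0 CPM in CK, 37.1, 55.4 and 100.2 in MHT and 59.8, 35.0 and 74.2 in SHT. All heated libraries were above all controls, and CK 2 was again the highest control. It rose by 1.91 on the log2 scale in MHT&CK (SE 0.479, edgeR's quasi-likelihood test, adjusted p = 0.0231) and by 1.72 in SHT&CK (SE 0.478, adjusted p = 0.0156). Without CK 2 these were 2.62 and 2.43. The first call was lost without CK 1 (1.70), CK 3 (1.63) or MHT 3 (1.43), and the second without CK 3 (1.45) or SHT 3 (1.47).

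The third unigene of this match, gene_16882, has a distant ID. It was at 3.81, 22.9 and 4.37 CPM in CK, 38.6, 53.0 and 77.5 in MHT and 43.7, 30.9 and 62.2 in SHT, again with CK 2 above the other controls. The rise on the log2 scale was 2.40 in MHT&CK (SE 0.591, edgeR's quasi-likelihood test, adjusted p = 0.0233) and 2.10 in SHT&CK (SE 0.589, adjusted p = 0.0179), and 3.77 and 3.46 without CK 2. The MHT&CK call was lost without CK 3 (2.03), MHT 2 (2.44) or MHT 3 (2.10), and the SHT&CK call without SHT 3 (1.81) or with only the SHT and CK libraries in the fit (2.11). For none of the 3 did SHT&MHT pass (0.02, -0.19 and -0.30).

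These 3 unigenes are uncertain as separate genes. The ID after gene_26843 and the ID after gene_16882 also match 1 protein between them, a hypothetical protein, so both the transporter and its neighbour occur at 2 places in the numbering, and reads of near-identical copies could have been split between them in the counting. These neighbours passed in neither comparison with CK. On the log2 scale gene_26844 had 0.14 in MHT&CK and 0.72 in SHT&CK, and gene_16883 had -0.41 and -0.14. On the other side gene_16881, a hypothetical protein, rose with gene_16882, by 2.29 in MHT&CK (edgeR's quasi-likelihood test, adjusted p = 0.0334) and 1.98 in SHT&CK (adjusted p = 0.0280). The ratio of gene_26842 to gene_26843 counts ran from 1.97 to 4.55 over the libraries, and it was lowest in CK replicates 1 and 3.

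The only called member with a named drug:H+ antiporter family, the DHA1 protein gene_1310, rose in both heat treatments with a tighter spread. It was at 1.46, 3.18 and 2.18 CPM in CK, 7.09, 8.12 and 9.84 in MHT and 7.36, 11.0 and 10.0 in SHT, and no heated library overlapped a control. It rose 3.55-fold in MHT&CK (log2 fold change 1.83, SE 0.332, edgeR's quasi-likelihood test, adjusted p = 0.00396) and 4.01-fold in SHT&CK (SE 0.329 on the log2 scale, adjusted p = 7.78e-04). The SHT&MHT value was 0.18. These calls were kept in every alternative tried. The MFS general substrate transporter gene_3866, at 1.66 ± 0.521 CPM in CK mycelia, 3.95 ± 0.579 in MHT mycelia and 5.14 ± 1.02 in SHT mycelia (mean ± SD, n = 3), rose in both as well, by 1.24 and 1.62 on the log2 scale. Its call in MHT&CK was near the threshold (edgeR's quasi-likelihood test, adjusted p = 0.0388) and was lost without any single CK or MHT library (1.00 to 1.49), without SHT 1 (1.24) or with only the MHT and CK libraries in the fit (1.26).

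A further 4 transporters rose in SHT&CK and passed in no other comparison. Among them gene_3654, an MFS general substrate transporter, was at 2.64, 4.87 and 4.37 CPM in CK, 4.95, 9.56 and 10.4 in MHT and 12.3, 19.3 and 14.1 in SHT. Its libraries thus climbed with temperature without overlap between groups. The log2 fold change was 1.91 in SHT&CK (SE 0.344, edgeR's quasi-likelihood test, adjusted p = 0.00134), 1.03 in MHT&CK (adjusted p = 0.0690) and 0.87 in SHT&MHT (adjusted p = 0.0898). The MHT&CK value passed without MHT 1 (1.30) or with DESeq2 (1.04), and the SHT&MHT value passed without MHT 3 (1.07).

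The other 3 had smaller rises. The MFS general substrate transporter gene_26456 rose by 1.44 on the log2 scale in SHT&CK (SE 0.318, edgeR's quasi-likelihood test, adjusted p = 0.00413) and passed SHT&MHT only without MHT 3 (1.05). The MFS superfamily protein gene_432, at 8.69 ± 3.74 CPM in SHT and 3.52 ± 1.67 in CK (mean ± SD, n = 3), had 1.26 and overlapping groups. Its call was lost without CK 1 (0.96), CK 3 (1.28), SHT 1 (1.25) or SHT 3 (0.92). The MFS substrate transporter gene_1262, at 30.9 ± 6.89 CPM in SHT and 14.5 ± 3.62 in CK, had 1.09, which went just under the fold threshold without CK 1 (0.98), CK 3 (0.98), SHT 2 (0.99) or SHT 3 (0.97).

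**Figure D4:**
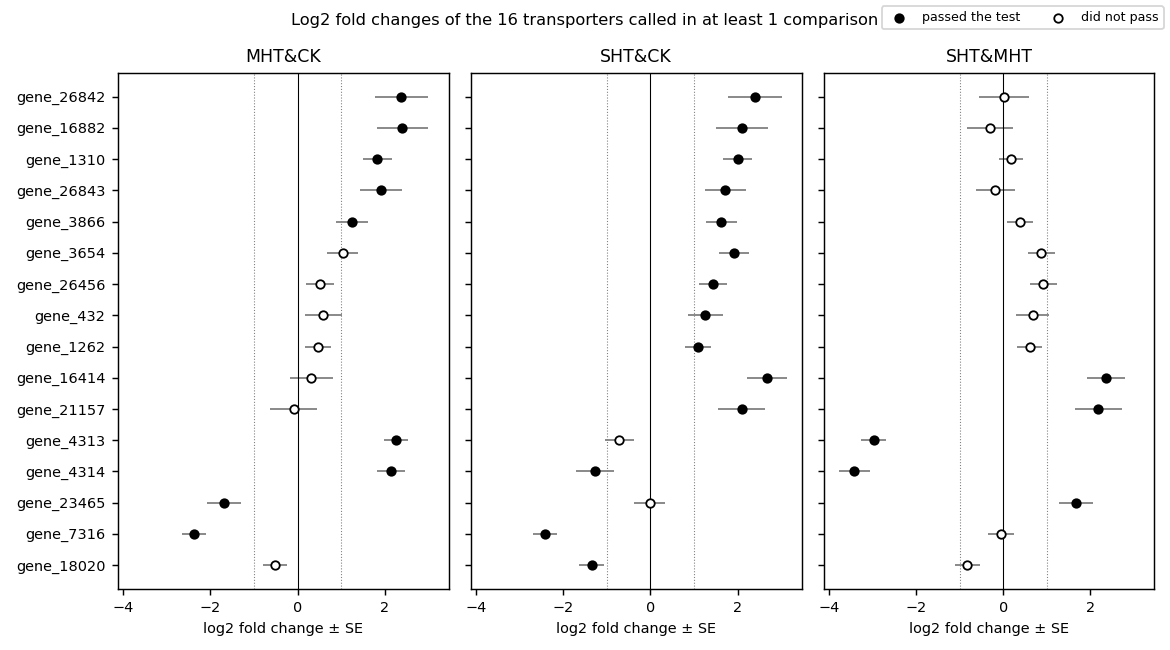
Log2 fold change with its standard error (bars) of the 16 transporters that were DEGs in at least 1 comparison, with a panel for each comparison. Filled points passed the test and open points did not, and dotted lines mark a log2 fold change of 1 in either direction. The 2 unigenes gene_4313 and gene_4314 lie at 2.25 and 2.14 in MHT&CK and at -2.97 and -3.42 in SHT&MHT.

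Besides gene_16414, the MFS substrate transporter gene_21157 rose at 36 °C in both comparisons. It was at 17.9, 47.5 and 25.1 CPM in CK, 20.1, 28.0 and 37.6 in MHT and 139, 42.4 and 207 in SHT. SHT replicates 1 and 3 were far above all other libraries, while SHT 2 lay below CK 2, so SHT and CK overlapped. The log2 fold change was 2.09 in SHT&CK (SE 0.537, edgeR's quasi-likelihood test, adjusted p = 0.0120) and 2.18 in SHT&MHT (SE 0.536, adjusted p = 0.0328). The first was lost with only the SHT and CK libraries in the fit (2.10). The second was lost without MHT 1 (1.98), MHT 2 (2.17), MHT 3 (2.43), SHT 1 (2.12) or SHT 3 (1.67).

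SHT 2 thus had the lowest value of its group in both transporters that rose at 36 °C in the 2 comparisons with SHT, and in gene_23465, while it had the highest value of gene_15438. Over the 44 transporters it was the lowest SHT library in 21 and the highest in 18. In MHT, replicate 1 was the lowest of its group in 26 transporters and replicate 3 the highest in 23. The part of these libraries' differences in the results was not tested beyond leaving each library out.

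The largest log2 fold changes of the 44 in SHT&MHT came from a pair of unigenes with adjacent IDs, gene_4313 and gene_4314, which match 1 MFS general substrate transporter. The first was at 4.39, 2.75 and 2.84 CPM in CK, 14.0, 18.8 and 14.3 in MHT and 1.84, 2.08 and 2.04 in SHT. All MHT libraries were above all CK libraries, and all CK libraries were above all SHT libraries. It rose 4.77-fold in MHT&CK (log2 fold change 2.25, SE 0.278, edgeR's quasi-likelihood test, adjusted p = 4.97e-04) and fell by 2.97 on the log2 scale in SHT&MHT (SE 0.285, adjusted p = 4.13e-04). Its SHT&CK value of -0.72 did not pass.

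The neighbour gene_4314 ran alongside, at 1.71 ± 0.410 CPM in CK mycelia, 7.72 ± 0.996 in MHT mycelia and 0.705 ± 0.211 in SHT mycelia (mean ± SD, n = 3). Its log2 fold changes were 2.14 in MHT&CK (edgeR's quasi-likelihood test, adjusted p = 0.00168) and -3.42 in SHT&MHT (adjusted p = 6.40e-04). It also fell in SHT&CK, by 1.27 on the log2 scale (edgeR's quasi-likelihood test, adjusted p = 0.0365), a call lost with DESeq2 (-1.31), with only the SHT and CK libraries (-1.26), or without CK 1 (-1.37), CK 2 (-1.38), CK 3 (-1.05), SHT 1 (-1.19) or SHT 3 (-1.15). The calls of both unigenes in MHT&CK and SHT&MHT were kept in every alternative. Summed to 1 feature, the pair had 2.22 in MHT&CK, -0.89 in SHT&CK and -3.11 in SHT&MHT, and the first and last passed.

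The opposite shape was seen in gene_23465, another MFS general substrate transporter. It was at 19.9, 23.7 and 25.1 CPM in CK, 4.45, 10.6 and 6.43 in MHT and 20.9, 11.9 and 35.4 in SHT. MHT lay below both other groups, and SHT spread over a range that covered CK. It fell in MHT&CK by 1.68 on the log2 scale (SE 0.391, edgeR's quasi-likelihood test, adjusted p = 0.0141) and rose in SHT&MHT by 1.66 (SE 0.387, adjusted p = 0.0215), with -0.02 in SHT&CK. The first call was lost without CK 3 (-1.61) or MHT 3 (-1.61), and the second without MHT 1 (1.40), SHT 1 (1.71) or SHT 3 (1.19) or with only the SHT and MHT libraries (1.62).

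A fall that passed in both heat treatments was found in gene_7316 alone among the 44. Without passing in both, gene_9251, gene_18020 and gene_22299 also lay wholly below CK in MHT and in SHT. The MFS general substrate transporter gene_7316 was at 24.3, 23.7 and 21.6 CPM in CK, 3.79, 5.59 and 4.02 in MHT and 5.37, 2.65 and 4.81 in SHT. Both heated groups lay far below CK and overlapped each other. The log2 fold change was -2.37 in MHT&CK (SE 0.277, edgeR's quasi-likelihood test, adjusted p = 3.37e-04) and -2.42 in SHT&CK (SE 0.277, adjusted p = 9.74e-05), and -0.05 in SHT&MHT did not pass. The unigene with the next ID, gene_7317, an uncharacterized protein, rose in the same comparisons, by 1.42 and 2.55.

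Several of the best counted transporters passed in no comparison. The MFS general substrate transporter gene_6180 was at 171, 146 and 145 CPM in CK, 173, 178 and 192 in MHT and 187, 226 and 181 in SHT. Both heated groups were above CK, by 0.23 on the log2 scale for MHT and 0.36 for SHT, and these differences did not pass. The likewise described gene_5810 was at 129, 104 and 131 CPM in CK, 80.4, 95.6 and 121 in MHT and 104, 131 and 84.0 in SHT, and its groups overlapped in all comparisons. The groups of gene_21844, described as MFS-1, overlapped as well, at 83.8, 78.8 and 74.5 CPM in CK, 86.6, 82.6 and 91.6 in MHT and 85.3, 77.3 and 79.1 in SHT.

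A pair with adjacent IDs came close to the fold threshold at 36 °C. The MFS general substrate transporter gene_24892 was at 107, 90.5 and 92.8 CPM in CK, 101, 116 and 76.3 in MHT and 57.7, 45.1 and 58.7 in SHT, so that SHT lay below both other groups. Its log2 fold change was -0.85 in SHT&CK (SE 0.195, edgeR's quasi-likelihood test, adjusted p = 0.00514) and -0.86 in SHT&MHT (SE 0.194, adjusted p = 0.0182). The MFS substrate transporter gene_24893, which matches a different protein, had -0.99 in SHT&CK (edgeR's quasi-likelihood test, adjusted p = 0.00310) and -0.89 in SHT&MHT (adjusted p = 0.0202). Neither met the fold threshold with all libraries. In SHT&MHT gene_24892 met it without MHT 3 (-1.01) and gene_24893 without SHT 1 (-1.02), and in SHT&CK gene_24893 met it without CK 2 (-1.09), SHT 1 (-1.11) or SHT 3 (-1.04). Their count ratio stayed between 3.09 and 4.13 in all libraries. In SHT&CK an adjusted p under 0.05 below the fold threshold was also found for gene_17431 (0.94) and gene_26222 (0.98), both MFS transporters of no named substrate.

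The transporters of another named substrate did not pass. The polyamine transporter gene_16320 averaged 12.2 ± 1.59 CPM in CK mycelia, 15.7 ± 1.81 in MHT mycelia and 15.4 ± 2.68 in SHT mycelia (SD, n = 3). The multidrug-resistance protein of the DHA1 sub-family, gene_24110, had log2 fold changes of -0.35 in MHT&CK, 0.20 in SHT&CK and 0.55 in SHT&MHT. In SHT&MHT, where it did not pass, every SHT library (67.3, 50.6 and 72.9 CPM) was above every MHT library (42.7, 39.0 and 49.0 CPM).

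Summed over the 44 transporters, expression was higher in the heated mycelia with 1 exception. The sum was 1697, 1888 and 1721 CPM in CK, 1870 (replicate 1), 2280 and 2669 in MHT and 2213, 2673 and 2426 in SHT. All SHT libraries were above all CK libraries, while MHT 1 lay just below CK 2. The transporters took 0.148% to 0.178% of the counts in CK, 0.184% to 0.273% in MHT and 0.244% to 0.296% in SHT. Of the transporter counts, gene_15438 alone held 28.5% to 49.7%, with both extremes in SHT, so the sum is weighted towards a single unigene. Without gene_15438 the sum was 1131, 1192 and 1039 CPM in CK, 1121, 1298 and 1629 in MHT and 1518, 1345 and 1735 in SHT. In this sum MHT 1 lay below CK 1 and CK 2. Among the other unigenes in it, gene_26842 averaged 41.5 CPM in CK and 220 in SHT.

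**Figure D5:**
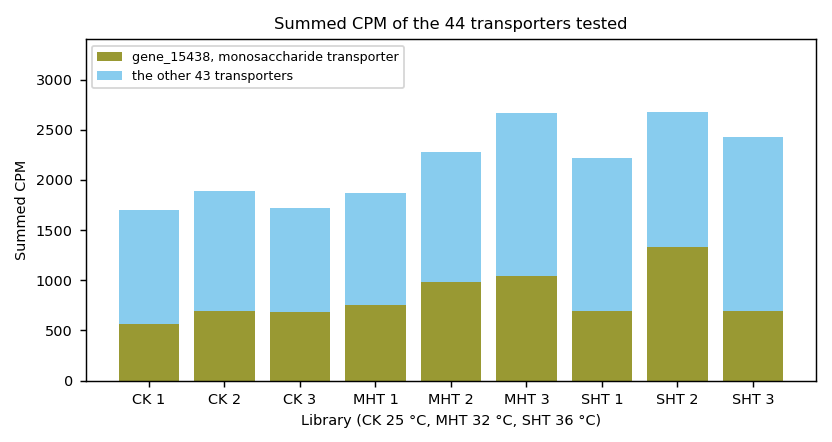
Summed CPM of the 44 transporters in each library, divided into gene_15438 (lower part of the bar) and the other 43 (upper part). The SHT libraries reach 2213 to 2673 CPM and the CK libraries 1697 to 1888.

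The 47 transporters match 40 proteins. For 38 of them (80.9%) the match is a protein of *P. eryngii*, a species that gives 31.3% of all descriptions, and for 6 (12.8%) it is listed under the willow *Salix suchowensis*, which gives 4.35%. The 4 unigenes of the table described as MFS substrate transporter and the hexose transporter gene_16414 are among those 6. There were 5 proteins shared by 2 or more transporters, 12 unigenes in all, and 7 pairs of transporters had adjacent IDs, 5 of them with 1 match. Values of unigenes with 1 match are uncertain as separate genes. Of 22 tested non-transporter unigenes with an ID next to a called transporter, 4 were DEGs in MHT&CK (8.17% of all unigenes tested) and 7 in SHT&CK (21.7%). In SHT&MHT (5.65%) edgeR called 0 of them and DESeq2 called 2, and 7 had an unadjusted p below 0.05.

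Lists of genes around sugar uptake were taken from the same descriptions. Of 5 unigenes for sugar phosphorylation and the steps next to it (hexokinase, glucokinase, a ribokinase-like protein and phosphoglucomutase), none passed in any comparison with edgeR or DESeq2, while 2 had an unadjusted p below 0.05 in MHT&CK, 1 in SHT&CK and 3 in SHT&MHT. Hexokinase gene_20313, which phosphorylates glucose on entry, averaged 36.2 ± 1.05 CPM in CK mycelia, 39.2 ± 6.93 in MHT mycelia and 38.2 ± 9.62 in SHT mycelia (SD, n = 3). Of 35 unigenes found by words for sugar-releasing glycosidases, 1 rose and 1 fell in MHT&CK, 4 rose and 4 fell in SHT&CK, and 1 fell in SHT&MHT. The 4 that fell in SHT&CK include gene_19707 (-1.03), described as a modular protein with a glycosyltransferase domain beside its glycoside hydrolase domain. It is thus not named as a glycosidase alone, and gene_19705, also in the list, has the same description. Of all unigenes tested, 3.85% rose and 4.32% fell in MHT&CK, 10.8% rose and 10.9% fell in SHT&CK, and 2.79% rose and 2.87% fell in SHT&MHT, and these shares are also the background for the lists that follow. A glycoside hydrolase of family 31, gene_20293, was the 1 that fell in SHT&MHT (-1.17) and also fell in SHT&CK, by 1.65 on the log2 scale (edgeR's quasi-likelihood test, adjusted p = 1.75e-04). The list for glucose signalling held 1 unigene, a regulatory subunit of cAMP-dependent protein kinase, which did not pass. The words for polyol metabolism found only 5 acyltransferases of lipid synthesis. None of these passed with edgeR or DESeq2, and 3 had an unadjusted p below 0.05 in SHT&CK and 0 in the other comparisons.

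Lists of other transporters, made from the words of the descriptions, were set beside the list of MFS and sugar transporters. Whether a protein of these lists also belongs to the MFS was not checked by sequence. Of 10 ABC transporters, which use ATP to move their cargo, none was a DEG in MHT&CK with edgeR or DESeq2 or had an unadjusted p below 0.05 there. In SHT&CK 2 rose, among them gene_6946 with a log2 fold change of 1.22. It was also the 1 ABC transporter that edgeR called in SHT&MHT, with a rise of 1.06 (edgeR's quasi-likelihood test, adjusted p = 0.0279). DESeq2 called 2 there. In SHT&MHT gene_17927 had a larger value of 1.60 that did not pass with edgeR's quasi-likelihood test (adjusted p = 0.0548). In SHT&MHT edgeR called 0 of the oligopeptide, amino acid, ion and ammonium transporters, mitochondrial carriers and aquaporins, while DESeq2 called 1 amino acid and 1 ion or ammonium transporter. Of 15 oligopeptide transporters 1 rose and 3 fell in MHT&CK and likewise in SHT&CK, and their median was -0.37 in SHT&CK. The amino acid transporter list held 9 unigenes tested, among them gene_19835, which is described as a permease chaperone and not as a transporter. In MHT&CK 1 of the list fell, gene_4232 (-1.19), described as an amino acid permease ScVBA-like protein. In SHT&CK 2 rose, both of them described as vacuolar. Of 22 ion and ammonium transporters 1 rose and 2 fell in MHT&CK, and 3 fell in SHT&CK. Of 13 mitochondrial carriers, which exchange metabolites across the inner mitochondrial membrane, 2 rose in MHT&CK and 5 in SHT&CK and none fell, with medians of 0.40 and 0.85. The 1 aquaporin-like channel, gene_19828, rose in both, by 1.63 in MHT&CK (edgeR's quasi-likelihood test, adjusted p = 9.08e-04) and 1.68 in SHT&CK (adjusted p = 2.12e-04). The median log2 fold change in SHT&CK was 0.12 for sugar phosphorylation, -0.04 for glycosidases, 0.20 for ABC, -0.06 for amino acid and -0.34 for ion and ammonium transporters, against 0.012 over all unigenes. No difference between these lists and the MFS was tested.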

How the data were processed

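Counts per unigene in 9 libraries of *P. tuoliensis* mycelia were taken as the authors deposited them, as whole numbers that were not normalized. To make them, the authors cleaned the reads (fastp), took out those from rRNA (Bowtie2), mapped the others to the strain JKBL130LB genome (HISAT2), built and counted transcripts (StringTie) and named unigenes by BLASTX. Tool versions and whether counting used strand were not given in the sources used here. No genome or sequence was used here.

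The counts were scaled by TMM and tested with edgeR 4.0.16 in R 4.3.3 (quasi-likelihood test, robust dispersions, a single model of all 9 libraries with the group alone, after removal of 935 unigenes with a zero count in any library), with Benjamini-Hochberg adjustment over all 13018 unigenes tested. The standard error of a log2 fold change is its size divided by the square root of the F statistic. Log2 CPM used a prior count of 2. No pair of libraries had identical counts.

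The transporters and lists were chosen with earlier results of these data known. Values in every library are given, per comparison and direction, for the 6 called transporters with the largest change and a mean of at least 5 CPM, for the 6 with the most counts and for called transporters with a named substrate; values in every library of the other transporters and neighbouring unigenes were chosen after values were seen. Alternatives were DESeq2 1.42.0, RLE and upper-quartile scaling, other filters, fits of 2 groups, a block for the replicate number, leaving out each library, and neighbouring unigenes of 1 description summed.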

Additional observations from a re-analysis of the deposited data

How the results depend on the processing

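The direction of every transporter call given was the same under all alternatives in which it had a value. Of 28 calls of a transporter in a comparison, 15 passed in all 16 alternatives that kept unigenes separate and 13 were lost in at least 1. The number of transporters called ranged from 4 to 10 in MHT&CK (9 with all libraries), from 10 to 16 in SHT&CK (14) and from 3 to 7 in SHT&MHT (5) when each library was left out in turn. With DESeq2 it was 10, 13 and 5, and RLE scaling, upper-quartile scaling, no filter and edgeR's filterByExpr gave 9, 14 and 5 each. Neighbouring unigenes summed gave 7, 12 and 4 of 39 features, and fits of only the compared groups 7, 11 and 4. The share of all unigenes called under these alternatives or the block that follows is not given here. These counts therefore do not compare the transporters with their background. The replicate number as a block gave 8, 13 and 4: in MHT&CK it lost gene_26842 (2.35) and gene_3866 (1.26) and gained gene_3654 (1.05), in SHT&CK it lost gene_4314 (-1.25) and in SHT&MHT gene_21157 (2.17). The numbers did not pair the libraries: the correlation of deviations from the group means was -0.227 to 0.442 between same-numbered libraries and over 0.1 in 1 of 9 pairs, and 2 of 9 libraries correlated best with their own number. Over all unigenes SHT&MHT gave 736 DEGs. Leaving out an MHT library gave 317 (replicate 1), 399 (replicate 2) and 1428 (replicate 3). Leaving out an SHT library gave 458 (replicate 1) and 278 (replicate 3), and the number without SHT replicate 2 is not given here. Low counts limit several called transporters and the 3 left out of the test. In the CK libraries gene_3866 had 6, 10 and 5 counts, gene_1310 had 5, 15 and 10, gene_432 had 6, 24 and 17 and gene_3654 had 9, 23 and 20. In the SHT libraries gene_4314 had 4, 5 and 3 counts and gene_4313 had 12, 11 and 11.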

Other observations

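The words that chose the transporters leave out 4 unigenes described only as a general substrate transporter, which were looked up after the values of the others had been seen. One of them, gene_15328, averaged 58.8 ± 5.93 CPM in CK mycelia, 76.1 ± 14.0 in MHT mycelia and 190.9 ± 30.3 in SHT mycelia (SD, n = 3). Its rise on the log2 scale was 1.70 in SHT&CK (SE 0.195, edgeR's quasi-likelihood test, adjusted p = 9.87e-05) and 1.33 in SHT&MHT (adjusted p = 0.00256), while 0.37 in MHT&CK did not pass. The other 3 passed in no comparison.

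Unigenes of the list used as a check on hyphae also changed. Of the 20 unigenes of this list tested, 2 rose and 3 fell in MHT&CK, 1 rose and 6 fell in SHT&CK, and 2 fell in SHT&MHT. The shares over all unigenes tested were 3.85% higher and 4.32% lower in MHT&CK and 10.8% and 10.9% in SHT&CK. In SHT&MHT they were 2.79% and 2.87%. A class 2 chitin synthase, gene_15051, which makes the chitin of the hyphal wall, rose by 1.62 in MHT&CK (edgeR's quasi-likelihood test, adjusted p = 0.0155) and 1.22 in SHT&CK (adjusted p = 0.0235), while chitin synthase 2, gene_23393, had -1.05 (adjusted p = 0.0442) and -1.98 (adjusted p = 7.91e-04).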
